A study of Homo sapiens with 8 samples.

Results

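Complement receptors and regulators were taken as the 6 genes CR2, CR1, CD46, CD55, CD59 and CLU, chosen by symbol among the 63967 gene labels of the expression table. Values could be placed for 5 of the 6, and 4 of these (CR2, CD46, CD55 and CD59) were among the 10710 genes tested. Raji, a rituximab-sensitive Burkitt's lymphoma cell line (RSCL), and Raji-4RH, the rituximab-resistant line (RRCL) made from it by repeated rituximab exposure, were grown for 2-3 passages. Both received either DMSO or chidamide, a histone deacetylase inhibitor, at 3 μM for 24 h, and RNA was taken from cells harvested by flow sorting. There were 2 libraries in each of the 4 groups, 8 in all. No group was untreated, since the controls carried DMSO, and each line is a single line, so a difference between Raji-4RH and Raji is a difference between those lines.

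Complement is a cascade of plasma proteins that C1q, bound to antibody on a cell, can start. C3 and C5 are then cleaved by enzyme complexes called convertases, and the late components assemble into the membrane attack complex, a pore in the target membrane. Human cells hold this in check with surface regulators, and killing of antibody-coated B cells by complement is a known action of rituximab. CR2 (CD21) and CR1 (CD35) are receptors for C3 fragments on B cells. CR2 lowers the threshold of B-cell activation together with partner proteins such as CD81 and is also the receptor of Epstein-Barr virus. CD46 is a cofactor for the cleavage of C3b and C4b, CD55 (decay-accelerating factor) takes convertases apart, and CD59 blocks the last step of the pore. CD55 and CD59 are held in the membrane by a glycosylphosphatidylinositol (GPI) anchor. CLU (clusterin) is a secreted protein that binds late components.

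CD55, CR2, CR1 and CD46 lie in this order on the plus strand of chromosome 1 (GRCh38, GENCODE v29), at 207321376 to 207386804 for CD55, 207454230 to 207489895 for CR2, 207496147 to 207641765 for CR1 and 207752057 to 207795513 for CD46. CD59 lies on the minus strand of chromosome 11, at 33703010 to 33736491. CR2 and CD46 are shown by their upstream sequence because these genes of the same stretch differed in opposite directions between the lines. CR1 and CR1L lie between them. CD55 also differed in the direction opposite to CR2 and is not shown. The 150 bases before the outermost start of each gene come from RefSeq (GRCh38.p14, plus strand), at chr1:207454080-207454229 for CR2 and chr1:207751888-207752037 for CD46. Capitals mark a GC box (GGGCGG or CCGCCC) or a CCAAT box (CCAAT or ATTGG), and the TATA box letters TATAAA or TTTATA were searched as well.
CR2: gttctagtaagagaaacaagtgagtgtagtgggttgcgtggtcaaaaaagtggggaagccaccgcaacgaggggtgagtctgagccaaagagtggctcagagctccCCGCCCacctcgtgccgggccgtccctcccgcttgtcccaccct
CD46: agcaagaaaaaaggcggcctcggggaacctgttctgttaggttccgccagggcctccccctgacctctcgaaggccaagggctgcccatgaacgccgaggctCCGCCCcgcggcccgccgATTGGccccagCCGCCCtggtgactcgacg
The CR2 window held 1 GC box, no CCAAT box and 8 CpG, and the CD46 window held 2 GC boxes, 1 CCAAT box and 14 CpG. Among 35116 promoter windows of the same length, 36.8% held a GC box, 23.5% a CCAAT box and 6.71% a TATA box, which neither gene had here. The median number of CpG was 7, and 51.5% of windows had fewer CpG than CR2 and 69.7% fewer than CD46. A match is a description of the letters and not of a bound factor.

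Library totals ranged from 13991697 to 21193441 reads, and the lowest belonged to a Raji-4RH chidamide library. The B-cell markers MS4A1, CD79A, CD79B, CD22, PAX5, CD74 and VPREB3 each reached 1 FPKM in each library. FPKM are the reads of a gene divided by its length and by the library total. Some markers of other cell types were also read. The summed level of 6 T-cell markers was 0.130 to 0.171 FPKM in Raji DMSO, 0.861 to 1.12 in Raji chidamide, 7.76 to 9.43 in Raji-4RH DMSO and 21.8 to 30.7 in Raji-4RH chidamide, of which CD3E and CD7 passed 1 FPKM in some library. Of 5 NK-cell markers, NKG7 and PRF1 did so, and their list's sum went from 1.40 to 1.71 FPKM in Raji DMSO to 28.6 to 29.7 in Raji-4RH chidamide, with 2.99 to 3.85 in Raji chidamide and 12.2 to 13.5 in Raji-4RH DMSO. Of 5 erythroid markers 3 were placed, and HBA2 took their sum to 13.7 FPKM in 1 Raji-4RH chidamide library against 1.39 in the other. Of 4 fibroblast markers, COL1A1 alone passed 1 FPKM, with list sums of up to 2.36 FPKM in Raji chidamide. The part of these cells or genes in the results was not tested.

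CR2 was far lower in Raji-4RH than in Raji, with a log2 fold change near the lowest of all genes tested. Raji DMSO libraries had 31.4 and 33.4 FPKM of CR2 and Raji chidamide libraries 127 and 125. Raji-4RH DMSO libraries had 0.120 and 0.0869 FPKM and Raji-4RH chidamide libraries 0.161 and 0.0667. Both Raji-4RH groups lay far below each Raji library and overlapped each other, while the chidamide libraries of Raji lay far above its DMSO libraries. In bulk RNA, fewer cells expressing a gene and less RNA per cell cannot be told apart. The group means were 32.4 ± 1.45 FPKM in Raji DMSO and 126 ± 1.37 in Raji chidamide (SD, n = 2 each).

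In Raji-4RH DMSO, CR2 rested on 20 reads over both libraries, against 6318 in Raji DMSO, and the level in Raji was 316 times that in Raji-4RH (95% interval 205 to 518, exact binomial, counting error only). Under chidamide the reads were 17 and 25428, a ratio of 1170 (731 to 2009). On the scale of log2(FPKM + 1), which understates changes of low genes, CR2 was lower in Raji-4RH by a log2 fold change of -4.92 with DMSO (limma, adjusted p = 3.8e-10) and -6.83 with chidamide (adjusted p = 1.5e-10). These were the second lowest and the lowest values of the 10710 genes tested. CR2 reached 1 FPKM only in Raji, so the filter admitted it through the line where it was high, and its rank depends on this. Chidamide treatment upregulated CR2 in Raji 3.88-fold by mean FPKM, a log2 fold change of 1.92 (95% interval 1.78 to 2.07, limma adjusted p = 2.6e-07), which ranked 84 from the highest. In Raji-4RH the log2 fold change was 0.012 (-0.13 to 0.16, adjusted p = 0.87), and the ratio of reads was 1.05 (0.515 to 2.11). Its sign turned under other scalings, and quantile normalization gave a call of -0.26 (limma adjusted p = 0.0041). The chidamide effect on log2(FPKM + 1) was smaller in Raji-4RH than in Raji by 1.91 (interaction -1.91, limma adjusted p = 4.6e-06). At the low level of CR2 in Raji-4RH this scale holds down any rise there. The call alone therefore does not show that the folds differed. On recovered reads the interaction was -1.97 with a wider interval (-3.18 to -0.75, voom, adjusted p = 0.014).

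**Figure D1:**
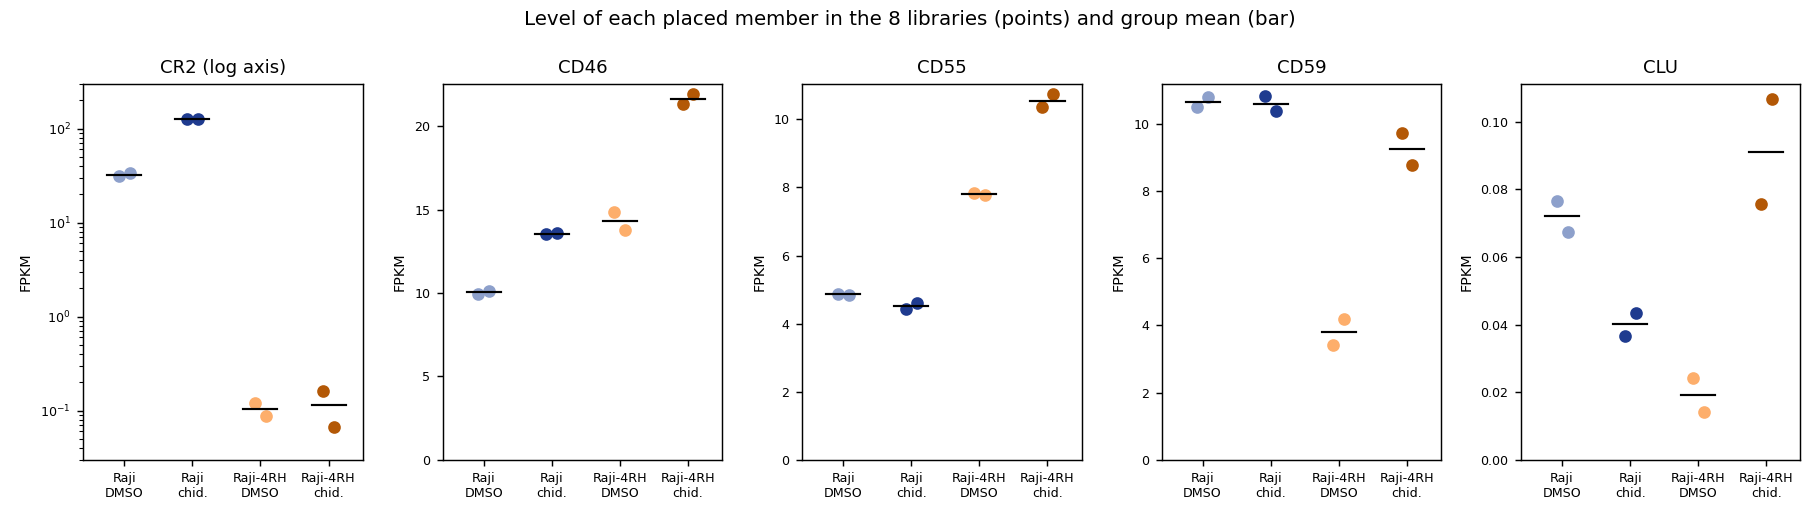
FPKM of the 5 placed genes in each library (points, 2 per group) with the group mean (bar), on a log axis for CR2 and on linear axes from 0 for the others. CR2 lies between 0.0667 and 0.161 in the 4 Raji-4RH libraries and at 31.4 or more in each Raji library. CD46 and CD55 are highest in Raji-4RH chidamide, and CD59 is lowest in Raji-4RH DMSO.

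CR2 acts with CD81, a tetraspanin, and with IFITM1 (Leu-13). CD81 fell by 1.16 on the log2 scale in Raji and by 0.80 in Raji-4RH (limma adjusted p = 1.5e-05 and 5.4e-05), and did not pass between the lines with DMSO at -0.020. IFITM1 showed the reverse of the CR2 pattern between the lines: 0.0469 and 0.0460 FPKM in Raji DMSO and 34.6 and 36.3 in Raji-4RH DMSO. The filter admitted IFITM1 through Raji-4RH alone. In Raji it was near the floor, at 0.225 and 0.489 FPKM with chidamide (log2 fold change 0.37, limma adjusted p = 0.016). In Raji-4RH its level fell to 15.3 and 12.8 with chidamide, below both DMSO libraries (log2 fold change -1.28, limma adjusted p = 8.8e-06). CRIP3, a cysteine-rich LIM protein, had the pattern most like that of CR2 over the 8 libraries (Pearson r = 0.9998, 6614 genes searched), followed by RANBP10 (r = 0.9984). CRIP3 had 9.56 and 10.3 FPKM in Raji DMSO, 26.4 and 26.0 in Raji chidamide and at most 0.117 in Raji-4RH.

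CR1 could not be described, because its label stood beyond the last row at which values could be tied to labels, and it was not analysed here. CR1L, a gene next to CR1 with much sequence in common, was nearly unread in Raji, with 0.0183 and 0.0179 FPKM in DMSO. In Raji-4RH DMSO it had 3.60 and 2.76 FPKM, a log2 fold change of 2.03 (limma adjusted p = 3.7e-07). With chidamide it had 2.97 and 3.45 FPKM in Raji-4RH, within the range of the DMSO libraries. Reads shared between CR1L and CR1 could not be told apart.

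CD46, the cofactor that inactivates C3b and C4b, rose with chidamide in both lines and was higher in Raji-4RH in both conditions. It had 9.96 and 10.1 FPKM in the DMSO libraries of Raji, and chidamide brought this to 13.5 and 13.6. In Raji-4RH it had 14.9 and 13.8 FPKM with DMSO and 21.3 and 22.0 with chidamide. No group overlapped another, and the lowest Raji-4RH library lay above each Raji library. Chidamide raised CD46 by 0.40 in Raji (0.27 to 0.52) and by 0.57 in Raji-4RH (0.44 to 0.69) on the log2 scale, with limma adjusted p = 0.00033 and 2.2e-05. These effects were not shown to differ (interaction 0.17, 95% interval -0.011 to 0.34, limma adjusted p = 0.11), although the quantile-normalized value of 0.33 passed (adjusted p = 0.0084). Raji-4RH exceeded Raji by 0.47 with DMSO and by 0.64 with chidamide (limma adjusted p = 7.3e-05 and 8.5e-06). GNPTAB, a subunit of the enzyme that tags lysosomal proteins, had the most similar pattern (r = 0.9977 over 8 libraries), from 4.70 and 4.85 FPKM in Raji DMSO to 15.5 and 15.9 in Raji-4RH chidamide. FAM49A followed at r = 0.9976. CD46 overlaps the pseudogene CDCA4P4 on the same strand, and their reads could not be separated here.

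CD55, which takes C3 and C5 convertases apart, was higher in Raji-4RH and rose with chidamide in that line. It had 4.88 and 4.84 FPKM in Raji with DMSO, compared with 4.43 and 4.61 after chidamide. Raji-4RH had 7.85 and 7.79 FPKM with DMSO and 10.4 and 10.7 with chidamide. Both Raji-4RH groups lay above all Raji libraries, and chidamide libraries lay above DMSO libraries in Raji-4RH and below them in Raji. The log2 fold change between lines was 0.59 with DMSO (0.47 to 0.71) and 1.06 with chidamide (0.94 to 1.19), with limma adjusted p = 1.5e-05 and 3.1e-07. In Raji-4RH chidamide gave 0.39 (0.27 to 0.51, limma adjusted p = 0.00018). In Raji it gave -0.087 (-0.21 to 0.034, adjusted p = 0.19), a fall that passed after quantile normalization at -0.18 (limma adjusted p = 0.018). The effects differed between the lines by 0.48 (limma adjusted p = 0.0012).

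Of the 5 placed members, CD55 alone had values that did not stand beside its label, and they depend on the row taken. They were read 12 rows below the label, where the stretch of 18 olfactory receptor labels, genes that B cells hardly read, all had under 100 reads. At distances of 0, 11 and 13 rows this held for 8, 8 and 10 of the 18 labels. The row at distance 12 held 5770 reads over the 8 libraries, and those at 11 and 13 held 0 and 7. The row beside the label held 37190 reads, and with it the log2 fold change in Raji-4RH would be -0.86 in place of 0.39. TSPAN13, a tetraspanin, had the pattern most like CD55 (r = 0.9976), at most 0.364 FPKM in Raji and 10.8 and 11.4 in Raji-4RH DMSO, followed by MARCHF6 (r = 0.9973).

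CD59, the inhibitor of the membrane attack complex, was low in Raji-4RH DMSO and rose with chidamide to near the level in Raji. It had 10.5 and 10.8 FPKM in Raji with DMSO, and its chidamide libraries, at 10.8 and 10.4, overlapped these. Raji-4RH had 3.42 and 4.18 FPKM with DMSO and 9.73 and 8.77 with chidamide. Each Raji-4RH chidamide library was thus above both Raji-4RH DMSO libraries and below all 4 Raji libraries. The mean in Raji-4RH rose 2.43-fold, from 3.80 ± 0.539 to 9.25 ± 0.683 FPKM (SD, n = 2 each), a log2 fold change of 1.10 (0.90 to 1.29, limma adjusted p = 5.4e-06). In Raji the value was -0.0054 (-0.20 to 0.19, limma adjusted p = 0.96), and the effects differed by 1.10 (adjusted p = 0.00018). With DMSO, CD59 was lower in Raji-4RH by a log2 fold change of -1.28 (limma adjusted p = 2.1e-06). With chidamide the difference of -0.18 (-0.37 to 0.014) missed the threshold (limma adjusted p = 0.079), but it passed with median-centred libraries at -0.26 (adjusted p = 0.028) and with voom at -0.20 (adjusted p = 0.040). Of 18 alternatives, 13 left the difference short of the threshold and 5 passed. Leaving out each library in turn moved it from -0.25 to -0.11. The genes most like CD59 were RAB11FIP4 (r = 0.9967), a Rab11 effector, and FUCA1 (r = 0.988), a lysosomal fucosidase. FUCA1 had 12.1 and 13.7 FPKM in Raji DMSO, 4.30 and 4.10 in Raji-4RH DMSO and 10.9 in both Raji-4RH chidamide libraries. CD59 overlaps the protein-coding gene AL049629.2 on the same strand, so part of these reads may be assigned to either.

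CLU, the secreted inhibitor of late complement components, was near the limit of detection and below the filter of 1 FPKM in 2 libraries, so it has no call. It had 10 and 9 reads in Raji DMSO, 5 and 6 in Raji chidamide, 3 and 2 in Raji-4RH DMSO and 7 and 13 in Raji-4RH chidamide. The groups of Raji-4RH did not overlap, and neither did those of Raji, where chidamide was the lower. Among the genes tested, without CLU, 49.7% lay wholly above in Raji-4RH and 39.3% wholly below in Raji. Summed over libraries, 20 reads against 5 gave a ratio of 4.93 in Raji-4RH (1.80 to 16.8), and 11 against 19 gave 0.557 in Raji (0.240 to 1.23), both intervals for counting error only. Raji-4RH DMSO stood at 0.263 of Raji DMSO (0.0767 to 0.728). At these levels 3 reads over a group equal 0.0109 to 0.0140 FPKM.

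**Figure D2:**
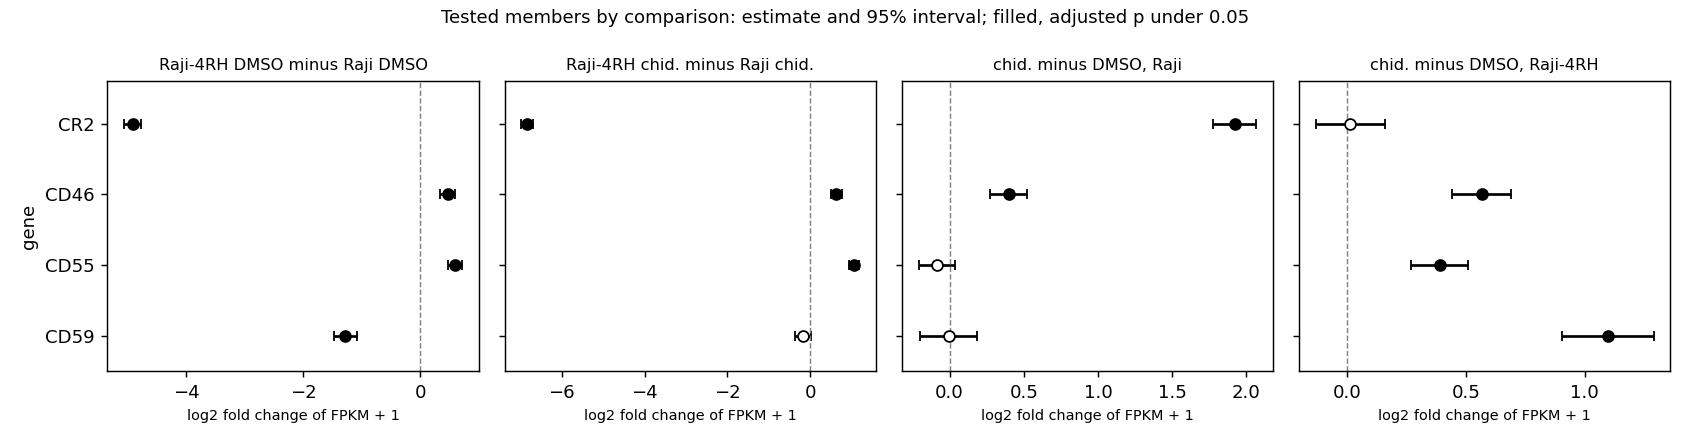
Log2 fold change of FPKM + 1 with its 95% interval for the 4 tested genes, between the lines (left panels) and with chidamide (right panels). Filled points passed limma at adjusted p under 0.05. The horizontal scale differs between panels, and CR2 reaches -4.92 and -6.83 between the lines.

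Counted by comparison, chidamide raised 3 of the 4 tested genes in Raji-4RH (CD46, CD55 and CD59), where 74.9% of all genes tested passed, 43.3% higher and 31.6% lower. Quantile normalization changed that split over all genes from 4642 higher and 3380 lower to 3718 and 4057. In Raji it raised 2 of 4 (CR2 and CD46), where 60.0% of all genes passed, 31.5% higher and 28.5% lower. The effects of chidamide differed between the lines for 3 of 4, more positive in Raji-4RH for CD55 and CD59 and less so for CR2, against 48.8% of all genes, 27.2% higher and 21.7% lower. With DMSO, all 4 differed between the lines, CD46 and CD55 higher and CR2 and CD59 lower in Raji-4RH, against 73.6% of all genes, 41.2% higher and 32.4% lower. With chidamide, CD46 and CD55 were higher and CR2 lower, 3 of 4 against 79.3% of all genes, 44.3% higher and 35.0% lower. In both comparisons of the lines, CR2 was admitted by the filter through Raji alone.

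Libraries of the groups compared often did not overlap, among all genes as among these. With chidamide in Raji-4RH, CD46, CD55 and CD59 lay wholly above DMSO, as did 49.7% of all genes, while 36.8% lay wholly below. In Raji, CR2 and CD46 lay wholly above, as did 43.5%, and CD55 wholly below, as did 39.3%. Between the lines with DMSO, CD46 and CD55 lay wholly above, as did 48.9%, and CR2 and CD59 wholly below, as did 39.6%. Between the lines with chidamide the same split held, against 49.5% and 39.1% of all genes. Counts of 4 genes cannot be read against shares of this size. The comparisons share libraries. With 2 libraries a group, an exact two-sided permutation test of a single gene cannot go below p = 0.333. The labels do not say that replicates were separate cultures, so p-values measure the spread between libraries, which may be technical.

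The order of the levels changed between lines. In Raji DMSO it ran CR2, CD59, CD46, CD55 and CLU, and in Raji-4RH DMSO CD46, CD55, CD59, CR2 and CLU, with no overlap between neighbours in these groups. In Raji chidamide CD46 moved above CD59. In Raji-4RH chidamide the order was that of its DMSO libraries, and CR2 and CLU overlapped. An order of different genes depends on the gene lengths used. CD59 was scaled with 4942 bases, while its joined exons in GENCODE v29 have 10358, and CD46 has 8708 in both. The order of CD59 and CD46 and the size of their ratio rest on this choice. Comparisons of a ratio between groups do not, since each library used the same lengths. The level of CD59 per unit of CD46 was 1.05 and 1.07 in the DMSO libraries of Raji, 0.799 and 0.764 in Raji chidamide, 0.230 and 0.304 in Raji-4RH DMSO and 0.457 and 0.399 in Raji-4RH chidamide. The share of CD59 relative to CD46 was therefore lower in Raji-4RH than in Raji with and without chidamide. The level of CD55 per unit of CD46 was 0.491 and 0.478 in Raji with DMSO, against 0.529 and 0.566 in Raji-4RH with DMSO. It went down with chidamide in Raji, to 0.327 and 0.340, and in Raji-4RH was 0.486 and 0.489.

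The tested chromosomal neighbours of CR2 moved in both directions between the lines. Of 19 genes listed around the cluster 18 were placed and 9 tested, CD55, CR2 and CD46 among them. With DMSO, 4 of the 9 were lower in Raji-4RH (CR2, IL10, PFKFB2 and YOD1), 4 were higher (CR1L, CD55, FCMR and CD46) and IL24 did not pass, where 32.4% of all genes tested were lower and 41.2% higher. CR2 and IL10 reached 1 FPKM only in Raji, and CR1L only in Raji-4RH. PFKFB2 reached it in Raji-4RH only in chidamide replicate 1. The filter thus admitted these genes through the line where they were high, and the counts depend on it. With chidamide, 6 of the 9 rose in Raji-4RH and 6 in Raji, where 43.3% and 31.5% of all genes rose. The list medians were 0.39 and 0.45, against 0.093 and 0.017 over all genes. These medians include the members, and that in Raji-4RH is the value of CD55 itself. IL24 reached 1 FPKM only in chidamide libraries, so the filter admitted it through the libraries where it was high. FCMR, the Fc receptor for IgM, rose most of these in both lines. Its level went from 0.690 and 0.507 FPKM to 11.5 and 12.4 in Raji, a log2 fold change of 3.02 (limma adjusted p = 4.0e-07). In Raji-4RH it went from 1.39 and 1.13 to 9.10 and 11.6 FPKM, a log2 fold change of 2.32 (limma adjusted p = 4.5e-07). IL10, a cytokine of B cells, was lower in Raji-4RH DMSO by a log2 fold change of -1.24 (limma adjusted p = 5.5e-05).

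**Figure D3:**
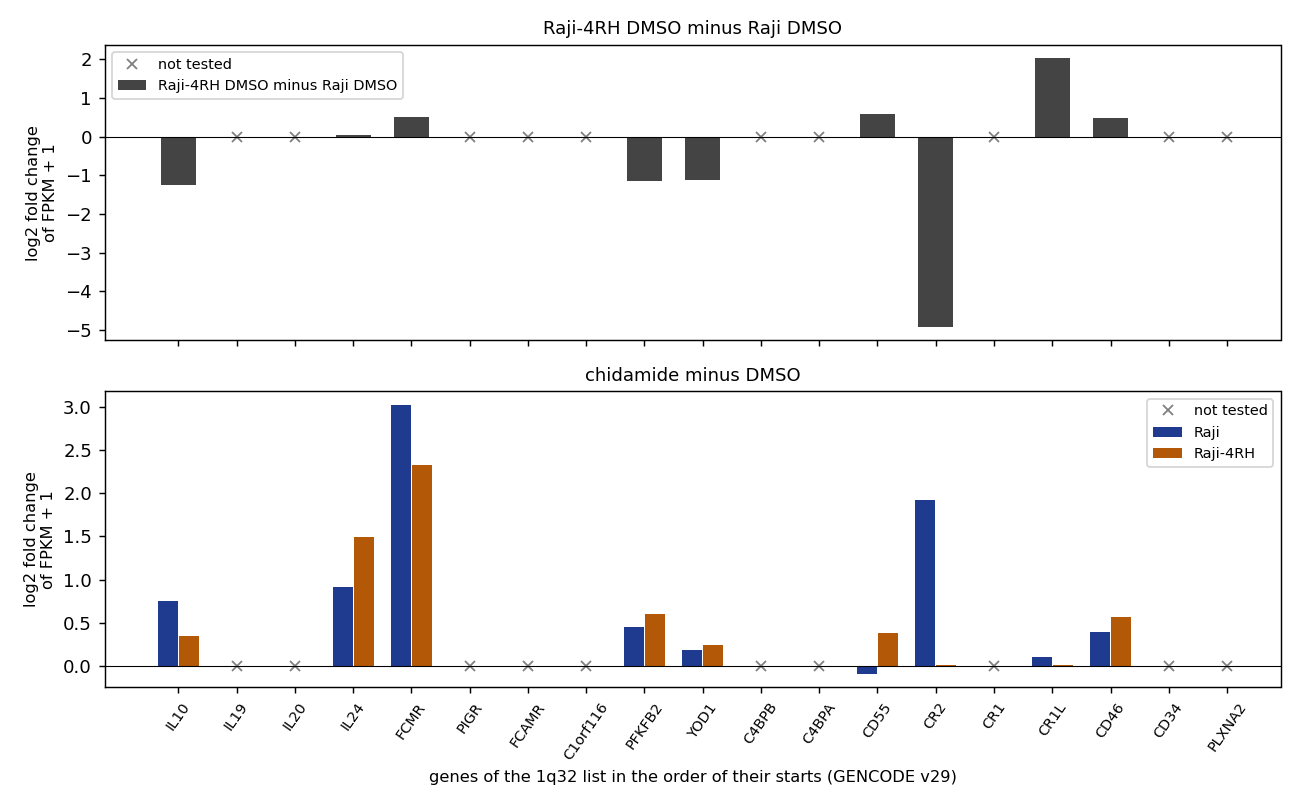
Log2 fold change of FPKM + 1 for the genes of the 1q32 list in the order of their starts, between the lines with DMSO (top) and with chidamide in each line (bottom). Crosses mark genes that were not tested. CR2, at -4.92, stands between CD55 and CR1L, which are higher in Raji-4RH.

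CD55 and CD59 need a GPI anchor, and 26 of 28 genes of anchor synthesis and transfer were placed and 25 tested. With DMSO, 15 were higher and 4 lower in Raji-4RH, and their median (log2 fold change) was 0.36 against 0.063 over all genes. The 19 called of 25 stand beside 73.6% of all genes, of which 41.2% were higher and 32.4% lower. DPM3, a subunit of dolichol-phosphate mannose synthase, and PIGG, which modifies the mannose core, were higher by 1.04 and 0.95 (limma adjusted p = 0.0022 and 4.0e-06). PIGF, needed for the ethanolamine-phosphate step, was lower by a log2 fold change of -0.97 (limma adjusted p = 1.0e-06). With chidamide, 8 rose and 8 fell in Raji-4RH, with a median of 0.0082 against 0.093 over all genes, and 11 rose and 4 fell in Raji, with a median of 0.19 against 0.017. Of all genes, 74.9% were called in Raji-4RH and 60.0% in Raji. Without Raji chidamide replicate 1, 8 of the 25 genes were called in Raji in place of 15. PGAP1, which deacylates the anchor's inositol, rose by 1.08 in Raji-4RH (limma adjusted p = 1.2e-06), and PIGV, a mannosyltransferase, rose by 0.88 in Raji-4RH and 0.72 in Raji (adjusted p = 7.0e-06 and 5.4e-05). PIGA, the catalytic subunit of the pathway's first enzyme, fell by 0.61 in Raji-4RH and by 0.29 in Raji (limma adjusted p = 0.00032 and 0.022). It was named after its values were seen.

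Most components that these regulators act on were read at low levels. Of 27 genes of complement components 24 were placed, and 3 were tested: C5, C8G and MASP2, a lectin pathway protease. Of the 21 placed but not tested, 3 had no reads in any library. C3, whose fragments CD46 and CR2 bind, was among those not tested and was named after its values were seen. It had 0.505 and 0.608 FPKM in Raji with DMSO and 0.0757 and 0.138 with chidamide, and 0.0128 and 0.0340 in Raji-4RH with DMSO and 0.935 and 1.16 with chidamide. Its chidamide libraries thus lay below DMSO in Raji and above it in Raji-4RH. All 3 tested genes rose with chidamide in Raji, where 31.5% of all genes rose. C5 rose most, from 0.837 to 3.28 FPKM (95% interval of the log2 fold change 1.04 to 1.40, limma adjusted p = 6.1e-06). It passed the filter only through the Raji chidamide libraries, where it was high. C5 and C8G also rose in Raji-4RH, by 0.43 and 0.29, and MASP2 fell by 0.31 there (limma adjusted p = 0.0011, 0.020 and 0.0068). Of 25 other receptors and regulators, 23 were placed and 8 tested, of which 6 rose and 1 fell in Raji-4RH with chidamide and 5 rose and 1 fell in Raji. These 7 and 6 called of 8 stand beside 74.9% and 60.0% of all genes, and 43.3% and 31.5% of all genes rose. ITGAM, ITGAX and C5AR2 reached 1 FPKM only in chidamide libraries. The filter thus admitted them through the libraries where they were high, and the count of genes that rose depends on it. ITGAM and ITGAX, the alpha chains of complement receptors CR3 and CR4, were low with DMSO and rose in both lines. ITGAM had 0.0626 and 0.0613 FPKM in the DMSO libraries of Raji and 3.96 and 3.58 with chidamide. In Raji-4RH it had 0.0941 and 0.0916 FPKM with DMSO and 1.99 and 2.80 with chidamide. ITGB2, their shared beta chain, rose by 0.55 in Raji and 1.36 in Raji-4RH on the log2 scale (limma adjusted p = 0.0011 and 2.9e-06). C1QBP, a mitochondrial and surface protein that binds C1q, was the 1 that fell in each line, by 0.52 in Raji and by 0.96 in Raji-4RH (limma adjusted p = 0.00024 and 3.2e-06). The summed level of 6 monocyte and macrophage markers moved with these receptors, from 1.15 to 1.23 FPKM in Raji DMSO to 6.94 to 8.46 in Raji chidamide, and from 1.13 to 1.21 to 8.52 to 10.1 in Raji-4RH. LYZ, CSF1R and S100A9 passed 1 FPKM among them, and their part in the result was not tested.

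Between the lines with DMSO, 4 of the 8 tested receptors and regulators were higher and 3 lower in Raji-4RH, beside 41.2% and 32.4% of all genes. CR1L, C5AR1 and C5AR2 reached 1 FPKM only in Raji-4RH, so the filter admitted them through that line. CR1L at 2.03 and C5AR1, the main receptor for C5a, at 1.06 stood highest, with C5AR1 at 0.189 and 0.185 FPKM in Raji DMSO and 1.63 and 1.33 in Raji-4RH DMSO (limma adjusted p = 1.3e-05). C3AR1, the receptor for C3a, was lower by a log2 fold change of -0.90 (limma adjusted p = 1.5e-05). It rose with chidamide in both lines, by 0.64 in Raji and 0.84 in Raji-4RH (limma adjusted p = 0.00022 and 2.3e-05).

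**Figure D4:**
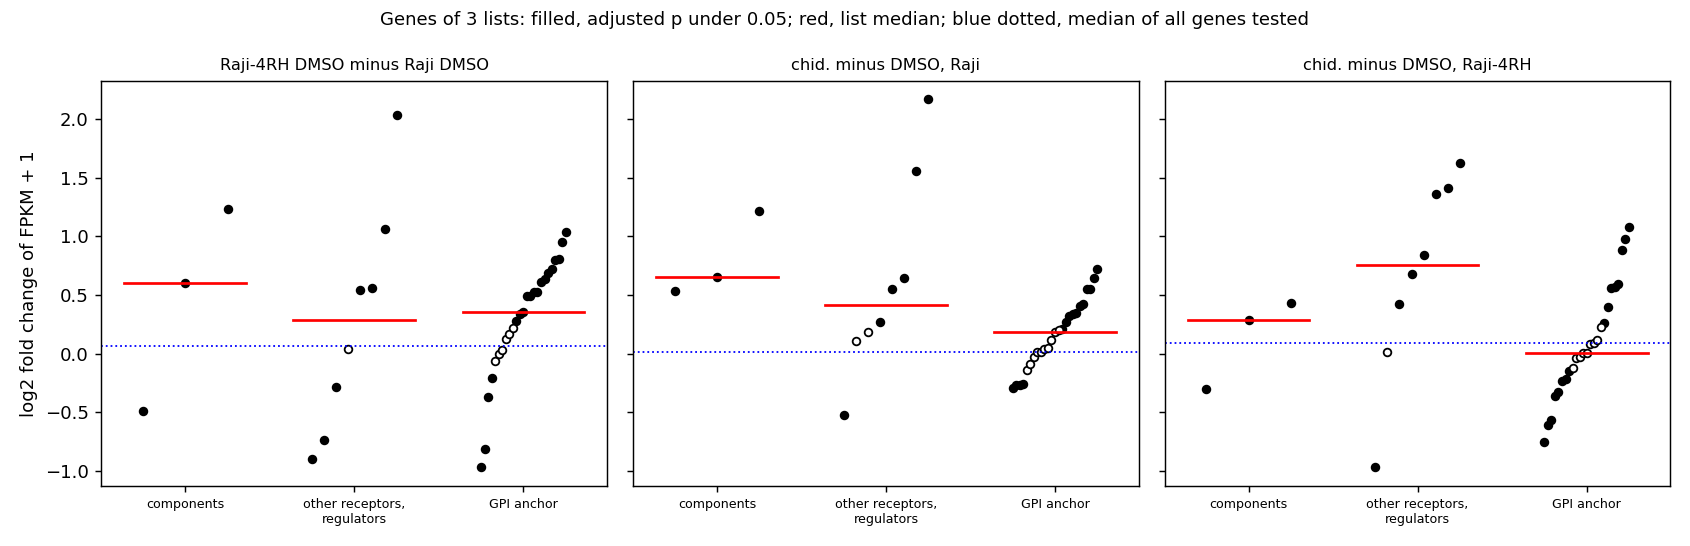
Log2 fold change of FPKM + 1 for the tested genes of 3 lists (complement components, other complement receptors and regulators, and GPI anchor genes), in panels for the lines with DMSO and for chidamide in each line. Filled points passed limma at adjusted p under 0.05, the red bar is the list median and the blue dotted line the median of all genes tested. The GPI anchor genes have a median of 0.36 between the lines and 0.0082 with chidamide in Raji-4RH, and CR1L is the point at 2.03 among the other receptors.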

How the data were processed

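RNA-seq of the 8 libraries (NEBNext Ultra kit, Illumina HiSeq X) was used. The authors deposited 1 table of FPKM per gene and library. The submitters' processing notes name HISAT2 2.0.5, SAMtools 1.7, HTSeq 0.9.1, DESeq2 1.22.2 and hg38, while the annotation and strand setting are not given in the sources used here. FPKM times length and library total gave whole reads for 100% of non-zero values (tolerance 0.01). The table has 63967 labels and 63305 value rows, of which the values stand up to 14 rows below their labels from label row 6235. By a fixed list of row ranges, 18143 genes up to label row 18171 were placed, with 90.7% to 93.2% of the reads, and FPKM was rescaled to the label's length. Coordinates are from GENCODE v29.

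Differences were tested with limma 3.58.1 (R 4.3.3; lmFit, contrasts.fit and eBayes, trend on). Values were taken as log2(FPKM + 1), all 8 libraries entered a single fit, and a gene was kept if 2 or more libraries reached 1 FPKM. The threshold was an adjusted p under 0.05 (Benjamini-Hochberg, over all genes tested). The fit was run on simulated counts in which a small share of well-read genes changed, in Raji-4RH chidamide only. Far more genes were called in these data, and genes with few reads were not among those changed. The simulation therefore does not bear on CR2 in Raji-4RH. Samples were grouped by their labels. Named genes were the 6 members, the CR2 partners CD81 and IFITM1, up to 3 called genes of each other list per comparison with the largest change and a mean of at least 1 FPKM, and the 2 genes with the highest Pearson correlation to each member among those whose mean reached 5 FPKM. Others named in counts were chosen after their values were seen. Members and lists were chosen with earlier results of these data known. Some results of the listed genes are not reported here. Alternatives were quantile normalization, median-centred libraries, a pseudocount of 0.1, other filters, only the libraries compared, no trend, voom on recovered reads, a replicate block, rows as deposited and leaving out each library. Python 3.11.15 with pandas 2.3.3, numpy 2.4.6, scipy 1.17.1 and matplotlib 3.10.9 was used.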

Additional observations from a re-analysis of the deposited data

Results flagged for a closer look

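For 3 of the 4 tested genes the effect of chidamide differed between the lines by the interaction term of the limma fit over 2 libraries a group, as it did for 48.8% of all genes tested. CR2 had a difference of -1.91 on the log2 scale (effect in Raji-4RH minus that in Raji, limma adjusted p = 4.6e-06). Both Raji chidamide libraries lay above both DMSO libraries, and the groups overlapped in Raji-4RH. The scale of log2(FPKM + 1) holds down any rise of CR2 in Raji-4RH, where few reads were found. On recovered reads the difference was -1.97 (-3.18 to -0.75, voom, adjusted p = 0.014). CD59 had a difference of 1.10 (limma adjusted p = 0.00018), with groups that overlapped in Raji and lay apart in Raji-4RH. CD55 had a difference of 0.48 (limma adjusted p = 0.0012), with chidamide higher in 2 of 2 libraries in Raji-4RH and lower in 2 of 2 in Raji.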

How the results depend on the processing

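The number of tested members called stayed within 1.5 times in all 5 comparisons under each alternative run, and of 356 values of single members 337 kept their direction and side of the threshold, 8 newly passed, 11 turned and 0 were lost. Leaving out each library in turn moved CR2 in Raji-4RH with chidamide from -0.049 to 0.073 and CD59 in Raji from -0.034 to 0.023. CR2 in Raji-4RH with chidamide turned to -0.26 with quantile normalization, -0.064 with median-centred libraries, -0.011 with voom, -0.0094 without Raji-4RH DMSO replicate 2 and -0.049 without Raji-4RH chidamide replicate 1, and CD59 in Raji turned to 0.012 without Raji DMSO replicate 2 and 0.023 without Raji chidamide replicate 2. With rows as deposited, where another gene's values stand beside the label, CD55 turned to -0.86 in Raji-4RH, -0.63 for the interaction, and -0.30 and -0.93 between the lines with DMSO and chidamide. The fold of CR2 between the lines depends on the pseudocount: with DMSO it was -7.32 at 0.1 and -8.17 at 0.01, the latter chosen after seeing the data, against -4.92. Quantile normalization moved the calls over all genes in Raji-4RH from 4642 higher and 3380 lower to 3718 and 4057, with the median of all genes moving from 0.093 to -0.022, and in Raji from 3370 and 3051 to 2642 and 3432. Median centring gave 3036 and 3421 in Raji. Voom, a weighted linear model on log2 counts, is the only alternative on reads. The cause of these changes was not tested, except that no filter adds genes and leaving out a library removes one.

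Of 356 counts of list genes called, 330 stayed within 1.5 times. Quantile normalization gave 7 neighbours of 1q32 for the interaction. With no filter, complement components gave 12 called in Raji-4RH, 7 in Raji, 7 for the interaction, 8 and 11 between the lines with DMSO and chidamide, other receptors 13 in Raji-4RH, 9 for the interaction and 11 between the lines with chidamide, 1q32 genes 11 in Raji-4RH and 14 between the lines with chidamide, and GPI genes 5 for the interaction. Voom gave 1 component for the interaction. With rows as deposited, components gave 10 in Raji-4RH, 9 in Raji, 8 and 9 between the lines, and other receptors 2 in Raji-4RH, 2 in Raji and 2 for the interaction. Leaving out each library gave 8 to 17 GPI genes in Raji and 3 to 10 for the interaction.

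Samples of different groups share replicate numbers, but their deviations correlated between -0.28 and 0.17, so the numbers were not taken as pairs. A replicate block gave 4583 higher and 3303 lower genes in Raji-4RH, and 3, 2, 3, 4 and 3 members called, as without it. CLU, at 2 to 13 reads a library, is limited by depth. Without the filter its log2 fold change was 0.098 in Raji-4RH and -0.044 in Raji (limma adjusted p = 0.0039 and 0.12). The interaction was 0.14 and the difference between the lines with DMSO -0.073 (limma adjusted p = 0.0075 and 0.017). Values at so few reads are not taken as calls.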
